A study of Mus musculus with 4 samples.

Results

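A set of 4 genes of the imprinted Dlk1-Dio3 region of mouse chromosome 12 were followed in muscle stem cells (MuSCs), the resident stem cells of skeletal muscle: the long noncoding RNAs Meg3, Rian and Mirg, and the protein-coding gene Dlk1. They were chosen by their measured values in these libraries, as 4 of the 19353 genes with a row in the count table, and were found there by gene symbol. The study asked how MuSCs behave in muscle under overload. RNA was sequenced from MuSCs of sham-operated (n = 2) and overloaded (n = 2) plantaris muscle, with 100 sorted cells and 1 CEL-Seq2 library per tube. Overload was induced by tenotomy, which severs the distal tendons of the synergists gastrocnemius and soleus, and the overloaded MuSCs were described at 4 days after surgery. Sham surgery cut the skin and left the tendons intact. All mice were Pax7-CreERT2:Rosa-YFP and received tamoxifen, so YFP marked cells in which the Pax7 promoter had driven the Cre, and their descendants. The sort on YFP therefore held every labelled cell, whether or not it still expressed Pax7. The age of the mice is not given in the sources used here, nor whether the libraries came from separate mice. The paper describes contralateral sham muscle in other experiments, but does not say for these libraries whether sham and overloaded muscle shared mice.

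Depth was 269683 and 260488 UMIs in sham and 387955 and 483528 UMIs in overloaded muscle, where a UMI is a molecular tag that lets copies of 1 captured RNA be counted once. CEL-Seq2 primes on poly(A) and counts 3′ ends, so a count is not proportional to transcript length. Levels below are CPM, UMI counts relative to library size with TMM factors applied, and a mean ± SD is over the 2 libraries of a group. Each tube was a bulk sample, so fewer expressing cells and less RNA per cell cannot be told apart.

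The Dlk1-Dio3 region is controlled by parental imprinting. In mouse tissues Dlk1, Rtl1 and Dio3 are expressed from the paternal chromosome, whereas Meg3 (also called Gtl2), Rian and Mirg are expressed from the maternal chromosome, and a methylated control element between Dlk1 and Meg3 sets this pattern. Rian hosts C/D-box small nucleolar RNAs and Mirg hosts a large cluster of microRNAs, and Dlk1 encodes a transmembrane protein of the EGF-repeat family related to the Notch ligands. In skeletal muscle the noncoding RNAs of the region are known to be abundant in quiescent MuSCs. The libraries here do not separate the parental alleles.

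On GRCm38 all 4 genes lie on the plus strand of chromosome 12. Dlk1 spans chr12:109452823-109463336, Meg3 chr12:109541001-109571726, Rian chr12:109603940-109661716 and Mirg chr12:109729764-109749460. The GENCODE M21 annotation gives 10 transcripts for Dlk1, 11 for Meg3, 20 for Rian and 12 for Mirg. It places 2 microRNA genes inside Meg3, 4 microRNA and 13 small nucleolar RNA genes inside Rian and 14 microRNA genes inside Mirg. Another gene on the opposite strand, Gm26906, overlaps Meg3, and Gm24321 overlaps Mirg on the opposite strand. The strand setting of the counting is not given in the sources used here, so reads of these overlapping pairs cannot be told apart. Neither Rian nor Dlk1 overlaps an annotated gene on the other strand.

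RefSeq sequences on GRCm38.p6 are shown for the starts of Meg3, Rian and Dlk1, because the first 2 were lower and the third higher in the overloaded libraries. Each window runs from 250 bases before to 50 bases after an annotated start, plus strand, and capitals mark matches on either strand to TGACGTCA (the cAMP response element), TATAAA (the core promoter box bound by TBP) and the further promoter box CCAAT.
Meg3 (chr12:109540746-109541045): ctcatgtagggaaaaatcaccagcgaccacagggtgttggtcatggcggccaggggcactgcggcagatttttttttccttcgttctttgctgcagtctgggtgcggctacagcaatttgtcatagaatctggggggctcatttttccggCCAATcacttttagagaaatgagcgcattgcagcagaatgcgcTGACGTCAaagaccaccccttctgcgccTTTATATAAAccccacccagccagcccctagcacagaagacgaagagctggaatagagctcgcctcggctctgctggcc
Rian (chr12:109603695-109603994): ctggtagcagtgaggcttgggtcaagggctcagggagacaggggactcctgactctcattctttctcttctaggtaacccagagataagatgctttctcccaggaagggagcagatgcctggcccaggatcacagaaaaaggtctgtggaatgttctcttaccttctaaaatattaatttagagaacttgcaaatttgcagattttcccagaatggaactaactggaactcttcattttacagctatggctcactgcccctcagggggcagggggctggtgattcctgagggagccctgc
Dlk1 (chr12:109452573-109452872): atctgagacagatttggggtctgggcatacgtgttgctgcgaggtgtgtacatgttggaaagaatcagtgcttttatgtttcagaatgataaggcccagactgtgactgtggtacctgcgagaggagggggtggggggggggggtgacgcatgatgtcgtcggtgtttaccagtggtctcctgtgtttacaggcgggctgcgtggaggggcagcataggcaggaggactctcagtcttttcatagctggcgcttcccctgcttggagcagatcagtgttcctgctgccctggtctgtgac
The Meg3 window held 1 TGACGTCA beginning 57 bases before the start, 1 CCAAT beginning 100 bases before it, and 2 overlapping matches to TATAAA, on the minus strand at 29 and on the plus strand at 25 bases before it. Of 32851 RefSeq mouse windows of this length, 1.79% held TGACGTCA, 13.6% TATAAA and 37.4% CCAAT, and 0.17% held both TGACGTCA and TATAAA. The windows of Rian and Dlk1 held none of these letters. That of Mirg (chr12:109734731-109735030) held 1 CCAAT, but it lies inside the GENCODE span of Mirg given above and not at its start. None of these windows held the E-box CAGCTG, which occurred in 16.3% of all windows. The dinucleotide CG occurred 13 times in the Meg3 window, 9 times in that of Dlk1, 10 times in that of Mirg and 0 times in that of Rian. A second RefSeq start of Meg3 had none of the motifs and 1 CG.

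The microRNAs are shown because Mirg is known mainly as their host. The RefSeq table used here holds 113 mature names between Dlk1 and Dio3. They carry 104 distinct seeds (bases 2 to 8, in capitals), and 9 seeds are shared by a pair of names. In 1 such pair both microRNAs lie inside Mirg.
miR-453 (chr12:109735669-109735692, plus strand): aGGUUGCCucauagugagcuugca
miR-496a-5p (chr12:109739132-109739152, plus strand): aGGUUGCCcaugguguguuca
In the next pair miR-410-5p lies inside Mirg and miR-494-5p in the interval before it.
miR-410-5p (chr12:109743729-109743749, plus strand): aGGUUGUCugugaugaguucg
miR-494-5p (chr12:109715334-109715355, plus strand): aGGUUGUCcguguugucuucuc
The opposite arm of the same hairpin in Mirg has a seed of its own.
miR-410-3p (chr12:109743764-109743784, plus strand): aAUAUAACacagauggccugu
Mature microRNAs carry no poly(A) tail and were not measured here. The counts of Meg3, Rian and Mirg below are of the longer host transcripts.

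All 4 genes passed the filter on low counts, and in each of them the sham and overloaded values did not overlap. Meg3, Rian and Mirg were lower and Dlk1 higher in both overloaded libraries than in either sham library. Among all 7228 genes tested, 37.5% were higher and 35.4% lower without overlap between the groups, and at an adjusted p of 0.1 in edgeR's quasi-likelihood test 25.8% were higher and 26.3% lower. Since the 4 genes were selected on this same contrast, their differences are given as a description and nothing is read from these shares. The plot of levels by library shows them with the other measured transcripts of the region.

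**Figure D1:**
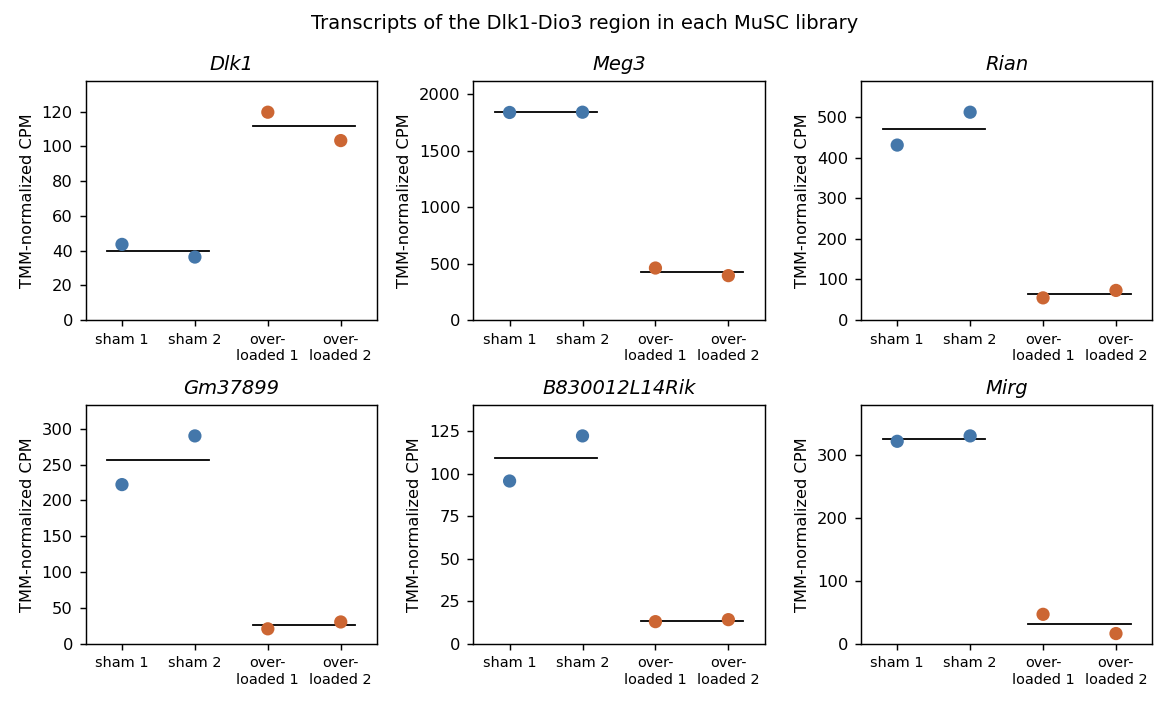
TMM-normalized CPM of 6 transcripts of the Dlk1-Dio3 region in the 2 sham and 2 overloaded libraries, in their order along the chromosome, with linear axes from 0. Points are libraries and lines are group means. Dlk1 was higher and the other 5 lower in both overloaded libraries.

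Meg3, the first noncoding gene after the control element, had 422 and 406 UMIs in the sham libraries and 177 and 194 in the overloaded libraries. Its total thus went from 828 to 371 UMIs although the overloaded libraries were deeper. On the CPM scale the libraries stood at 1837 and 1839 in sham and 460 and 393 in overloaded muscle. The 2 sham values were almost equal, and the overloaded values were both far below them. The means were 1838 ± 1.63 and 427 ± 47.6 CPM (SD, n = 2 each), a log2 difference of -2.11 with a standard error (SE) of 0.16, or 4.32-fold lower. By UMIs, Meg3 ranked 21 and 22 among all genes in the sham libraries and 207 and 231 in the overloaded libraries. By mean CPM among the 3259 noncoding genes with a row it was second to Malat1 in the sham group, and at rank 4 in the overloaded group, where H19 was second.

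Rian had 99 and 113 UMIs in the sham libraries and 21 and 36 in the overloaded libraries. These were 431 and 512 CPM in sham and 54.6 and 72.9 CPM in overloaded muscle. The overloaded library with more UMIs was still far below both sham libraries. Means were 471 ± 57.3 and 63.8 ± 12.9 CPM (SD, n = 2 each), with a log2 difference of -2.86 (SE 0.21), 7.24-fold lower. Its rank among noncoding genes went from 10 to 58.

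Mirg, the microRNA host at the far end of the noncoding cluster, had 74 and 73 UMIs in the sham libraries and 18 and 8 in the overloaded libraries. In CPM these were 322 and 331 against 46.8 and 16.2. The sham pair was close together, whereas the overloaded pair differed on the log2 scale more than did those of the other 3 genes, on few counts. Mirg averaged 326 ± 6.07 CPM in sham and 31.5 ± 21.6 CPM in overloaded muscle (SD, n = 2 each), and its log2 difference was -3.44 (SE 0.30), 10.8-fold lower. It became -4.28 without overloaded replicate 1 and -2.75 without overloaded replicate 2. Among the noncoding genes it went from rank 17 to rank 135.

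Dlk1, the paternally expressed gene before the control element, was the only 1 of the 4 that was higher in overloaded muscle. It had 10 and 8 UMIs in the sham libraries and 46 and 51 in the overloaded libraries, or 43.5 and 36.2 against 120 and 103 CPM. The counts in sham muscle were low, so the fold change rests on 18 UMIs there against 97. The means were 39.9 ± 5.15 and 111 ± 11.5 CPM (SD, n = 2 each), a log2 difference of 1.46 (SE 0.34), 2.76-fold higher.

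Set among all tested genes by log2 difference, Mirg stood 10th, Rian 24th and Meg3 119th from the most negative, and Dlk1 784th from the most positive. Across genes the difference also depended on abundance: in the plot of all genes the abundant ones tended to lie below 0 and the scarce ones above it. When this dependence was removed by offsets fitted to abundance, the difference of Meg3 became -1.02, that of Rian -2.49, that of Mirg -3.34 and that of Dlk1 1.31. The abundant Meg3 thus moved most, by over 1 unit of log2, and kept its sign.

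**Figure D2:**
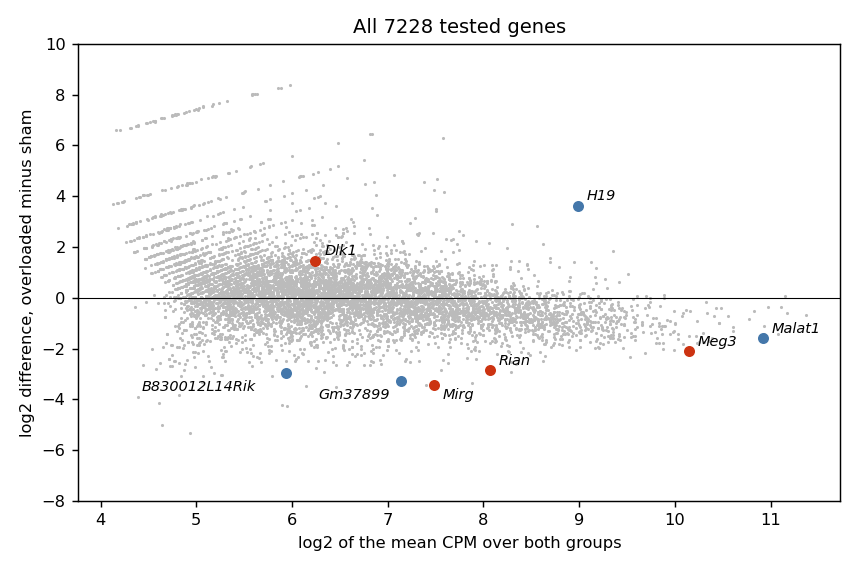
Log2 difference between overloaded and sham libraries against the log2 mean CPM of both groups for the 7228 tested genes (grey). Red points are Meg3, Rian, Mirg and Dlk1, and blue points are 4 other noncoding RNAs. Mirg, Rian and Gm37899 lie near the lower edge of the cloud, and H19 lies high above it.

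Meg3, Rian and Mirg together took 0.221% and 0.227% of all UMIs in the sham libraries. Their exact 95% binomial intervals were 0.203% to 0.239% and 0.209% to 0.246%, which cover counting error only. In the overloaded libraries they took 0.0557% (0.0485% to 0.0636%) and 0.0492% (0.0432% to 0.0559%). The group means were 0.224% ± 0.0047 and 0.0524% ± 0.0046 (SD, n = 2 each).

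The make-up of this sum is given as a description, since it rests on the counts by which the genes were chosen. Meg3 held 70.9% and 68.6% of the 3 genes' UMIs in the sham libraries and 81.9% and 81.5% in the overloaded libraries. The exact intervals of Meg3 in the sham libraries reached at most 74.5%, and those in the overloaded libraries began at 76.0%. These intervals cover counting error within a library and not the spread between libraries. Rian held 16.6% and 19.1% in sham and 9.72% and 15.1% in overloaded muscle, and the intervals overlapped in every pair of libraries across groups except sham 2 (16.0% to 22.5%) and overloaded 1 (6.12% to 14.5%). Mirg held 12.4% and 12.3% in sham and 8.33% and 3.36% in overloaded muscle. The interval of the first overloaded library, 5.01% to 12.9%, overlapped both sham intervals, whereas that of the second, 1.46% to 6.52%, lay below them. These shares need no scaling between libraries, but they compare captured 3′ ends and not molecules per length.

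**Figure D3:**
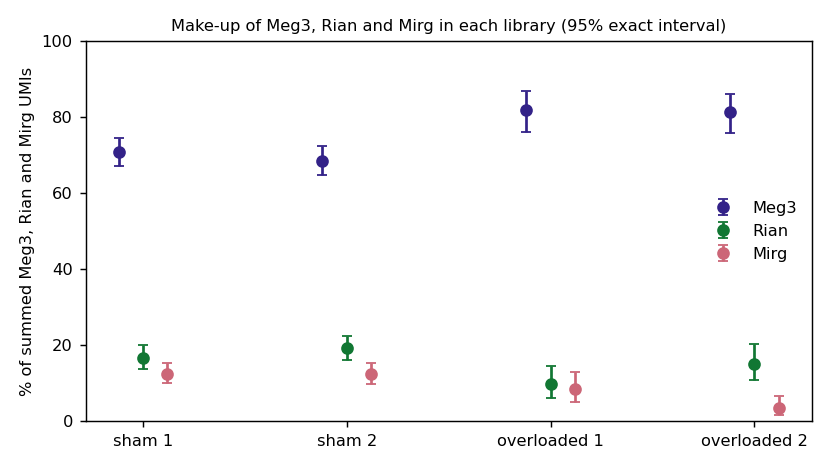
Share of each of Meg3, Rian and Mirg in their summed UMIs in each library, in percent, with exact 95% binomial intervals. Meg3 was between 68.6% and 70.9% in the sham libraries and between 81.5% and 81.9% in the overloaded libraries, whereas intervals of Rian and Mirg overlapped for some pairs of libraries across groups.

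The neighbours were then placed beside the 4 genes. GENCODE M21 annotates 118 genes from Dlk1 to Dio3, a span of 828 kb, of which 67 are microRNA and 23 small nucleolar RNA genes. A row in the count table existed for 15 of the 118, that is for the 4 genes and 11 others. Only 2 of the other 11 had enough counts to be tested, and both were lower in overloaded muscle, beside 26.3% lower past the threshold and 35.4% lower without overlap among all tested genes. Only the sham libraries, where these 2 were high, admitted them past the filter on low counts. Their direction and adjusted p-values are therefore given as a description. Gm37899, a single-exon transcript with a provisional gene model at chr12:109668869-109677585, had 51 and 64 UMIs in sham and 8 and 15 in overloaded muscle. Its log2 difference was -3.27 (SE 0.30, adjusted p = 4.04e-07, edgeR quasi-likelihood). The long noncoding RNA B830012L14Rik, at chr12:109695586-109702587, had 22 and 27 against 5 and 7 UMIs, a log2 difference of -2.96 (SE 0.41, adjusted p = 2.53e-05, edgeR quasi-likelihood). Both lie on the plus strand between Rian and Mirg, with gaps of 7.2 kb from Rian to Gm37899, 18.0 kb on to B830012L14Rik and 27.2 kb on to Mirg. Neither group of either gene overlapped the other.

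The remaining 9 were scarce in every library. Dio3, the deiodinase gene that inactivates thyroid hormone, had 0 and 0 UMIs in sham and 1 and 1 in overloaded muscle. A count of 0 allows up to 3 counts, which is 13.1 and 13.6 CPM in the 2 sham libraries, so no difference was detectable at this depth. Rtl1, a retrotransposon-derived paternally expressed gene, had 1 and 2 against 0 and 2 UMIs, and Dio3os had 0 and 0 against 1 and 0. Gm25224 had 2 and 9 against 0 and 1 UMIs. Mir337, DQ267102, Gm23787, Gm26945 and Gm3379 each had between 0 and 2 UMIs per library.

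Ordered by position, the 5 transcripts with enough counts to be fitted from Meg3 to Mirg were all lower in overloaded muscle, and Dlk1, which ends 77.7 kb before Meg3, was higher. The log2 difference was -2.11 at Meg3 and between -2.86 and -3.44 at the 4 transcripts that begin 62.9 kb to 188.8 kb beyond the Meg3 start. This order along the chromosome was not tested, and it rests on 5 transcripts measured in the same 4 libraries. Of these 5, Gm37899, B830012L14Rik and Mirg were admitted past the filter on low counts only by the sham libraries, where they were high. When overloaded replicate 2 was left out, Mirg stood at -2.75 and Rian at -3.06, so the order of these 2 depended on that library.

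**Figure D4:**
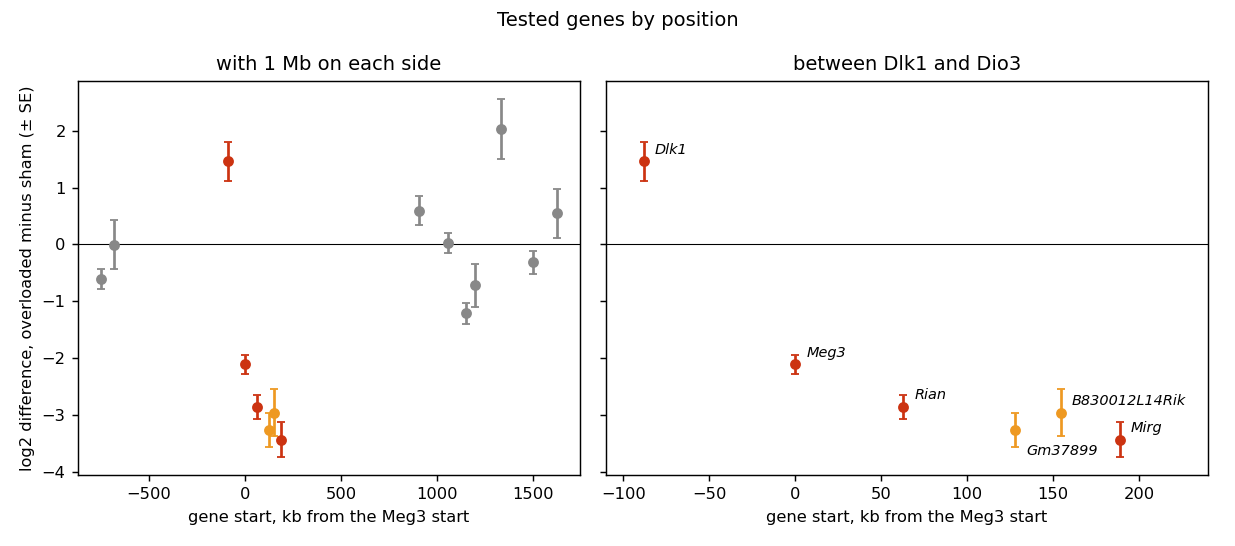
Log2 difference between overloaded and sham libraries (± SE) against the distance of each gene's start from the Meg3 start in kb, for all tested genes within 1 Mb of the region (left) and for those between Dlk1 and Dio3 (right). Red points are Meg3, Rian, Mirg and Dlk1, orange points are Gm37899 and B830012L14Rik, and grey points are flanking genes. The 5 transcripts from Meg3 to Mirg lie between -2.11 and -3.44, below all flanking genes.

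The genes on either side of the region were fitted in the same way. Within 1 Mb on either side, 27 of 58 annotated genes had a row and 9 were tested, of which 2 rose, 2 fell and 5 did not pass, beside 25.8% higher and 26.3% lower among all tested genes. Per tube without scaling the split was 6 higher and 0 lower. Their median log2 difference was -0.003, and that of all tested genes was 0.05. Cinp, a gene of the DNA replication checkpoint, had 2 and 3 against 17 and 24 UMIs, so only the overloaded libraries admitted it past the filter on low counts. It was higher by 2.03 (SE 0.53, adjusted p = 0.0047, edgeR). It no longer passed without overloaded replicate 2 (1.99). Hsp90aa1, a stress-inducible HSP90 chaperone, differed by -1.22 (adjusted p = 6.1e-05, edgeR). Ppp2r5c, a regulatory subunit of protein phosphatase 2A, differed by 0.59 (adjusted p = 0.064, edgeR), a call that was lost without sham replicate 1, sham replicate 2 or overloaded replicate 1 (0.50, 0.61 and 0.48), and Yy1, a zinc finger factor that binds at imprinted loci, by -0.61 (adjusted p = 0.012, edgeR), which became 0.35 per tube without scaling of the libraries. No flanking gene that was tested differed as far below 0 as Meg3 did, but Meg3 was chosen by this contrast, so nothing is read from that.

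Imprinted genes elsewhere in the genome were listed for comparison. Of 42 with a row, 23 were tested, and 4 rose, 10 fell and 9 did not pass, with a median log2 difference of -0.15. Of all tested genes 25.8% rose and 26.3% fell, and whether the list stands apart from them was not tested. H19, a maternally expressed long noncoding RNA that hosts miR-675, went from 19 and 15 to 366 and 458 UMIs, a log2 difference of 3.63 (SE 0.22, adjusted p = 1.15e-08, edgeR). Gatm, which makes the precursor of creatine, rose by 2.87, from 4 and 4 to 51 and 65 UMIs. Only the overloaded libraries admitted Gatm past the filter on low counts, so its direction is given as a description. Airn, the antisense transcript of Igf2r, fell by 1.61 on the log2 scale, and Calcr, the calcitonin receptor of quiescent MuSCs, fell by 2.60. Imprinting of several of these genes is known in some tissues only. Counted per tube of 100 cells without any scaling, which raised the median of all tested genes to 1.01, this list had 13 higher and 3 lower.

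A further list held factors of DNA methylation, of chromatin and of imprint upkeep, together with the muscle transcription factors of the Mef2 family. Of 28 with a row 24 were tested, and 6 rose, 7 fell and 11 did not pass, with a median log2 difference of 0.017. These numbers lie near the 25.8% higher and 26.3% lower of all tested genes. Uhrf1, which brings the maintenance methyltransferase to replicated DNA, had 2 and 0 UMIs in sham and 24 and 31 in overloaded muscle (adjusted p = 0.00033, edgeR), and no fold is given against so few counts. Hells, a chromatin remodeller, rose by 1.85, Setdb1, a histone H3 lysine methyltransferase, by 1.75 and Mef2c, a muscle transcription factor, by 2.47. Uhrf1, Hells, Setdb1 and Mef2c were admitted past the filter on low counts only by the overloaded libraries, so their direction is given as a description. Without sham replicate 1 Setdb1 stood at 1.07 and no longer passed and Mef2c stood at 3.84, and without sham replicate 2 they stood at 2.89 and 1.76. Hells no longer passed without sham replicate 2 (1.44) or without overloaded replicate 1 (1.599). Trim28, the corepressor of KRAB zinc finger proteins and the most abundant gene on the list, had a log2 difference of -0.057 and overlapped between the groups. Its sign turned under several scalings, and it passed as higher per tube (0.92, adjusted p = 0.0031, edgeR) and with offsets for abundance (0.58, adjusted p = 0.015, edgeR). Per tube the list had 17 higher and 0 lower. Mki67, the proliferation marker, went from 0 and 2 to 70 and 53 UMIs in the same libraries, and its part in the values of Uhrf1 and Hells was not tested.

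For genes that process microRNAs and small nucleolar RNAs, all 23 had a row, 18 were tested, and 3 rose, 9 fell and 6 did not pass, with a median of -0.53. The background was 25.8% higher and 26.3% lower over all tested genes, and the difference from it was not tested. Adarb1, an adenosine deaminase that edits double-stranded RNA, fell by 2.25 on the log2 scale (SE 0.18, adjusted p = 1.38e-07, edgeR), from 135 and 133 to 45 and 65 UMIs. Nop58, a core protein of C/D-box particles, fell by 1.63, and Ddx5, a helicase of the Microprocessor complex, fell by 1.23. Ruvbl2, an assembly factor of these particles, rose by 1.77, which became 2.69 without sham replicate 1 and 1.18 without sham replicate 2. With 9 and 3 UMIs in sham, Ruvbl2 would not have passed the filter on low counts by the sham libraries alone. Its direction is thus given as a description. Per tube of 100 cells without any scaling, the list instead had 9 higher and 2 lower.

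On the list of other long noncoding RNAs, each one tested differed less far below 0 than Meg3, Rian and Mirg as fitted. Those 3 were chosen by this contrast, so nothing is read from that order. Of 34 with a row 23 were tested, and 1 rose, 14 fell and 8 did not pass, against 25.8% higher and 26.3% lower over all tested genes. Their median was -0.81, and the gene that rose was H19, which with Airn, Kcnq1ot1 and the untested Peg13 also stands on the list of imprinted genes. Malat1, the nuclear RNA with the most UMIs of all noncoding genes, had 665 and 643 against 484 and 334 UMIs, a log2 difference of -1.60 (SE 0.22, adjusted p = 2.3e-05, edgeR). Lncpint, a p53-induced RNA, differed by -1.68 on low counts (adjusted p = 0.0047, edgeR), and without sham replicate 1 it stood at -1.17 and no longer passed. Only the sham libraries, where Lncpint was high, admitted it past the filter on low counts, so its direction is given as a description. With offsets fitted to abundance Lncpint stood at -2.06 and Airn at -1.59, below the -1.02 of Meg3. Per tube without scaling this list had 5 higher and 3 lower, whereas Meg3, Rian and Mirg stayed lower, at -1.16, -1.89 and -2.49.

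**Figure D5:**
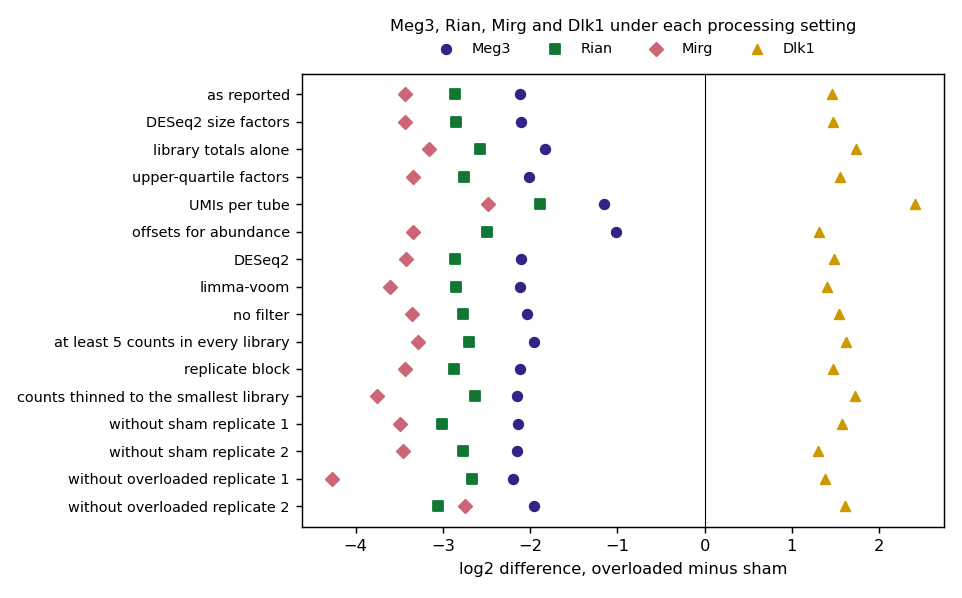
Log2 difference between overloaded and sham libraries of Meg3, Rian, Mirg and Dlk1 as reported and under 15 other processing settings (rows). Meg3 ran from -2.20 to -1.02, Rian from -3.06 to -1.89, Mirg from -4.28 to -2.49 and Dlk1 from 1.30 to 2.41, with no change of sign.

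The genes whose pattern over the 4 libraries was most like that of Meg3 were Sowahc, Hmcn2, Lmo2, Gm43813 and Trib1. Likeness was the root mean square (rms) difference of log2 CPM after each gene was centred on its own mean, and it was 0.049 for Sowahc and 0.067 for Trib1. Sowahc had 137 and 145 against 60 and 66 UMIs, and Trib1 had 328 and 350 against 152 and 169. With 4 libraries in 2 groups, such likeness mainly reflects a similar fold change. For Rian the 5 nearest genes were Pqlc1 (rms 0.074), its neighbour B830012L14Rik (0.11), Adh1 (0.15), Wnt4 and Nppc (0.16 each). Of the genes named here as alike, Lmo2, B830012L14Rik, Adh1 and Wnt4 were admitted past the filter on low counts only by the sham libraries. Gm37899 was 12th nearest to Rian, Meg3 stood 88th and Mirg 363rd. From Meg3, B830012L14Rik stood 407th, Rian 501st, Gm37899 1142nd and Mirg 1917th.

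The sort was on YFP that depends on the Pax7-driven Cre, which would leave out cells that never expressed Pax7. Markers of MuSCs and of other cell types were summed to check what the libraries held. Counts of markers that passed the test, here and below, stand beside 25.8% higher and 26.3% lower and a median of 0.05 over all tested genes, and no list was tested against these. The 12 MuSC markers were all present, with 7683 and 6831 CPM in sham and 5034 and 4421 CPM in overloaded muscle, and Sdc4 was the most abundant of them, with 422 and 284 against 375 and 345 UMIs. Of the 12, 2 rose and 8 fell, with a median of -0.82. Pax7, which defines the lineage, had 118 and 107 against 108 and 137 UMIs and a log2 difference of -0.84 (adjusted p = 0.00064, edgeR), which became 0.12 per tube without scaling. Chrdl2 and Chodl, genes of quiescent MuSCs, differed by -2.53 and -1.76. On a list of 10 myogenic genes with a row, 8 were tested and 4 rose and 2 fell, with a median of 0.86. Myog, a factor of differentiating myoblasts, rose by 1.43 and Mymk, a membrane protein of myoblast fusion, by 2.61 (3.49 without sham replicate 1). With 20 and 7 UMIs in sham, Mymk would not have passed the filter on low counts by the sham libraries alone. Its direction is thus given as a description.

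Markers of macrophages and other leukocytes moved with the same contrast. Their 12 genes summed to 8.71 and 31.7 CPM in sham and 203 and 429 CPM in overloaded muscle. Lyz2, the most abundant of them, went from 0 and 0 to 17 and 38 UMIs, and 8 of the 12, Adgre1, C1qa, C1qb, Csf1r, Cd74, Fcer1g, Tyrobp and Lyz2, had no UMI in sham. Lyz2 and Cd74, the 2 that could be tested, had no UMI in sham, so only the overloaded libraries admitted them past the filter on low counts. Their direction was thus set by the filter, and nothing is read from it. Tenocyte markers summed to 8.71 and 27.2 against 169 and 128 CPM. Scx, with 1 and 2 against 40 and 61 UMIs, was the only gene tested, and it too was admitted by the overloaded libraries alone. Tnmd, Fmod, Thbs4, Comp and Chad were at 0 in both sham libraries and in overloaded 2. The tenocyte sum of overloaded 2 thus rested almost wholly on Scx, with 61 of 63 UMIs.

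The 12 fibro-adipogenic markers summed to 5876 and 5572 CPM in sham and 4914 and 4364 CPM in overloaded muscle, of which 8 were tested, 2 rose and 5 fell, with a median of -0.45. Col3a1 was the most abundant, with 508 and 461 against 618 and 683 UMIs. It passed as lower (-0.53, adjusted p = 0.013, edgeR), but passed as higher per tube without scaling (0.42) and with offsets for abundance (0.75). The defining receptor gene Pdgfra had 0 UMIs in sham and 2 and 0 in overloaded muscle, and Pi16 had 1 and 0 against 0 and 0. Ly6a, which encodes Sca-1, had 1 and 0 against 22 and 41 UMIs (adjusted p = 0.00011, edgeR), so any fold would rest on 1 sham UMI. Only the overloaded libraries admitted it past the filter on low counts. The collagen gene Col1a2 rose by 1.84, from 74 and 55 to 426 and 465 UMIs, while Cd34 and Dpt differed by -1.95 and -1.43. Myofibre markers summed to 1994 and 1037 against 3755 and 3453 CPM, and all 8 tested rose, with a median of 1.16. Acta1 was the most abundant, with 120 and 66 against 299 and 342 UMIs (its call was lost without sham replicate 2, at 0.45). Myh1 and Myh2 were at 0 in sham, and each had only 0 and 2 UMIs in overloaded muscle. Genes of fast fibres led the list, with Myh4 at 2.96 (2.27 without overloaded replicate 1), Mylpf at 2.11, Eno3 at 1.95 and Tnnt3 at 1.198. By the sham libraries alone, Myh4 (10 and 5 UMIs) and Eno3 (24 and 7) would not have passed the filter on low counts. The direction of these 2 is therefore given as a description. Leaving out 1 library moved Mylpf from 1.51 to 3.01 and Eno3 from 1.31 to 3.03, lowest without sham replicate 2 and highest without sham replicate 1. Endothelial markers summed to 131 and 90.6 against 140 and 148 CPM. Of the 2 tested Tek, the most abundant of that list, fell, a call lost without sham replicate 2 or overloaded replicate 1 (-1.29 and -1.10). Tek had 10 and 12 against 5 and 11 UMIs. Only the sham libraries admitted it past the filter on low counts, so its direction is given as a description. Cldn5 and Egfl7 were at 0 in sham, and had 1 and 1 and 7 and 4 UMIs in overloaded muscle.

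Mural markers summed to 2455 and 2415 against 2400 and 2485 CPM, with Des, which muscle cells also express, as the most abundant at 208 and 209 against 302 and 363 UMIs. Of the 6 tested, 2 rose and 2 fell, and Myh11 was at 0 in sham and had 0 and 3 UMIs in overloaded muscle. Rgs5, a pericyte gene, had 13 and 4 against 38 and 86 UMIs and rose by 1.88 (adjusted p = 0.0016, edgeR), which became 2.89 without sham replicate 1 and 1.26 without sham replicate 2. By the sham libraries alone Rgs5 would not have passed the filter on low counts, so its direction is given as a description. Acta2, which encodes smooth muscle actin, rose by 0.95, and Notch3, a receptor gene of mural cells and MuSCs, fell by 1.07 on the log2 scale. The mural sum thus hid genes that differed in opposite directions. The leukocyte, tenocyte, endothelial and myofibre sums were higher in both overloaded libraries, as was Dlk1, and the MuSC and fibro-adipogenic sums in CPM were lower, as were Meg3, Rian and Mirg. In UMIs per tube without scaling, both sums were higher, at 1765 and 1508 against 1936 and 2183 for MuSC markers and 1350 and 1230 against 1890 and 2155 for fibro-adipogenic markers, whereas the 3 noncoding RNAs were lower on that scale too. These bulk sums do not tell which cells held a marker RNA, and in sham Pdgfra had 0 and 0 and Ly6a 1 and 0 UMIs. The part of any other cells in the values of the 4 genes was not tested.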

How the data were processed

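RNA-seq libraries of YFP-sorted MuSCs were made by CEL-Seq2. The authors extracted barcodes and UMIs with UMI-tools (version 1.0.0), aligned reads to GRCm38 with HISAT2 (version 2.1.0), assigned them with featureCounts (version 1.6.4) and collapsed UMIs per gene. They deposited raw UMI counts per gene and library, without normalization. The strand setting and annotation release are not given in the sources used here. All 19353 gene identifiers matched GENCODE M21, and 19331 had the same symbol.

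Genes were kept by filterByExpr (minimum count 10, minimum total 15), scaled by TMM and tested with edgeR (version 4.0.16, R version 4.3.3) by glmQLFit and glmQLFTest, all 4 libraries sharing 1 estimate of the spread. A gene scarce in 1 group could be admitted by the other group alone, so the direction of such a gene was partly set by the filter. Of 7228 genes tested, 3732 had an unadjusted p under 0.05. Adjusted p-values are Benjamini-Hochberg over all tested genes, with a threshold of 0.1. DESeq2 (version 1.42.0) and limma-voom (version 3.58.1) were alternatives. The fit was also run on simulated data, and the outcome is not reported here. Figures used matplotlib (version 3.10.9).

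Meg3, Rian, Mirg and Dlk1, the gene lists (flanking, imprinted, imprint regulator, small RNA processing, long noncoding RNA, myogenic and cell type marker genes) and the motifs were chosen with earlier results of these data, or the sequences, known. No set test was run. Named were every gene between Dlk1 and Dio3 with a count, the 4 flanking genes with the largest differences past the threshold, up to 4 genes per other list with the largest differences past the threshold (mean of at least 10 counts, groups not overlapping) and its most abundant gene, and the 5 genes most like Meg3 and Rian. Mki67, Myog and Pax7 were added as landmarks. Markers without a UMI in sham or in overloaded muscle are named outside this rule. The values of 1 marker list are not reported here.

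No library was left out. The sham pair and the overloaded pair differed by slightly more than sampling noise (chi-square per degree of freedom 1.36 and 1.57, against 7.61 to 9.31 between groups). Nothing says that libraries of a group came from separate mice, so p-values measure only the spread between these samples, which may be technical.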

Additional observations from a re-analysis of the deposited data

How the results depend on the processing

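Under 15 alternatives Meg3, Rian, Mirg and Dlk1 kept their signs. Per tube without scaling, 4481 genes were higher and 331 lower (93.1% of calls higher, against 1868 and 1898, 49.6%), the differences were -1.16 (Meg3), -1.89 (Rian), -2.49 (Mirg) and 2.41 (Dlk1), and calls numbered 16 for imprinted genes, 17 for imprint regulators, 11 for small RNA processing and 8 for other long noncoding RNAs. Library totals alone gave 66.6% of calls higher, with Meg3 at -1.84, Rian at -2.58 and Dlk1 at 1.74. Offsets for abundance gave Meg3 -1.02 and Rian -2.49. With at least 5 counts in every library Meg3 was -1.95, and with thinned counts Dlk1 was 1.72. DESeq2 called 967 genes higher and 1215 lower, 1 flanking gene and 7 of small RNA processing. The 13 calls among imprint regulators (6 higher, 7 lower) became 11 by library totals (8 higher, 3 lower), 13 by upper-quartile factors (7 and 6), 11 with offsets (7 and 4), 6 by DESeq2 (4 and 2), 11 without a filter (6 and 5), 7 at 5 counts and 12 when thinned (7 and 5). Leaving out each library gave -2.20 to -1.95 for Meg3, -4.28 to -2.75 for Mirg, 9 to 14 calls for imprint regulators and 7 to 11 for small RNA processing. The lowest of these counts were without overloaded replicate 2, and the lowest value of Mirg was without overloaded replicate 1. The median of all tested genes was 0.33 by library totals, 0.15 by upper-quartile factors and 1.01 per tube, and over 19353 genes 0.23 with DESeq2 and 0.30 without a filter.

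Some single genes changed sign, among them Sdc4, Pax7, Yy1, Tagln and Col3a1, which had passed as lower. Trim28 was 0.22 by library totals, 0.038 by upper-quartile factors, 0.92 per tube, 0.58 with offsets, 0.025 without a filter, 0.10 at 5 counts, 0.015 when thinned, and -0.24 to 0.15 when a library was left out. Per tube Yy1 was 0.35, Pax7 0.12, Sdc4 0.028, Col3a1 0.42, Tagln 0.35 and Des 0.67. With offsets Sdc4 was 0.20, Col3a1 0.75 and Des 0.70. Trim28, Col3a1 and Des passed as higher under both of these settings. Col3a1 thus passed in opposite directions, since as first fitted it was lower at -0.53 (adjusted p = 0.013, edgeR). Myf5 ran from -0.16 to 0.33 when a library was left out. The cause was not tested for any of these. With the replicate block, 1806 genes were higher and 1864 lower, and the 4 genes stood at -2.11, -2.88, -3.43 and 1.47. Deviations of same-numbered libraries correlated at -0.034 over 7228 genes, which gives no sign of pairing and does not show whether they share animals. Of the 5 genes most like Meg3, 4 stayed per tube, and all 5 for Rian. Without mitochondrial genes Meg3, Rian and Mirg together held 0.228% of UMIs in sham and 0.0533% in overloaded muscle. Depth limits the scarce genes: 3 counts were 13.1 and 13.6 CPM in sham and 7.80 and 6.08 CPM in overloaded libraries.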
